A study of Homo sapiens with 28 samples.

Results

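The proteasome genes of CHL-1 melanoma cells were followed through treatment with BAY 1238097, an inhibitor that blocks the acetyl-lysine binding bromodomains of the BET family of chromatin proteins. They were taken by symbol, as every gene named PSMA, PSMB, PSMC, PSMD, PSME, PSMF or PSMG with a digit after it, and where several probe sets measured a gene the brightest on average, in log2 intensity, was used. This gave 49 of the 22357 genes with a probe set of their own. Read broadly, the name proteasome subunit held for 44 of them. These encode subunits, assembly chaperones, activators or the inhibitor of the proteasome, and are called subunit and assembly genes here. The other members were 3 antisense RNA genes (PSMB8-AS1, PSMD6-AS2 and PSMG3-AS1) and 2 genes named after a subunit their protein binds (PSMC3IP and PSME3IP1), which are described separately.

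CHL-1 is an established human melanoma cell line. Total RNA was hybridised to 28 arrays in 6 groups. Cells received the solvent DMSO for 4 h (4 arrays) or 24 h (4 arrays), or 75 nM or 468 nM BAY 1238097 for 4 h or 24 h (5 arrays for each dose and time). Per the labels 75 nM was the IC50 and 468 nM the IC90, and the comparison of doses and times was made to follow dose-dependent changes in transcription. All samples came from this single line, and the labels leave unsaid whether replicate arrays stem from different cultures. The p-values therefore reflect the spread among these samples alone, and that spread may be technical.

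The proteasome degrades proteins that carry chains of ubiquitin. Its core is a barrel of α rings, which form the gate, around β rings, of which PSMB5, PSMB6 and PSMB7 hold the proteolytic sites. In immune cells and after interferon these sites are taken by PSMB8, PSMB9 and PSMB10, whose particle, the immunoproteasome, favours peptides that fit class I antigen molecules. A cap on the barrel has a base, with a ring of ATPases (PSMC genes) that unfold the substrate, and a lid, in which PSMD14 removes the ubiquitin chain. Assembly chaperones build the core (PSMG genes) and the base (PSMD5, PSMD9 and PSMD10), while PSME1 to PSME4 encode caps of another kind that open the core without ATP.

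Of the 44 subunit and assembly genes, 39 passed the filter for testing, a log2 intensity above 5 on at least 4 of the 28 arrays, as did 9285 of all genes. The 5 that did not were PSMA8 of the testis core, PSMB11 of the thymus core, PSMB9, the ubiquitin receptor PSMD4 and the core chaperone PSMG4. PSMD4 had a mean of 3.43 and PSMG4 a mean of 4.07 over all arrays, and no array exceeded 5 for any of the 5 genes. A further 4 subunits had no probe set of their own and could not be followed. These were PSMA6, which was covered only by a probe set shared with other genes, PSMC5, PSMD7 and PSMD13. Most of the 39 genes were well above the filter, but PSMD9 exceeded it on 10 arrays and PSMB10 on 22.

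Values are log2 intensities, changes are log2 fold changes with the standard error of the model, and calls were made in limma where p, adjusted by Benjamini-Hochberg over all 9285 genes, was below 0.05. The arrays were alike, with correlations between 0.868 and 0.979 over the genes tested. Of the labelled melanocyte and neural crest markers, SOX10 and S100B passed the filter, MITF, PMEL, MLANA and TYR did not, and DCT had no probe set of its own. SOX10 itself fell by 0.73 at 468 nM and 4 h and rose by 0.58 at 468 nM and 24 h. No keratinocyte, fibroblast or endothelial marker passed, and of the leukocyte markers only CD68 did. HEXIM1, a reported readout of BET inhibition, rose by 0.85 at 75 nM and by 1.66 at 468 nM after 4 h and by 1.297 at 468 nM after 24 h, and was not called at 75 nM and 24 h (change 0.32, adjusted p 0.201). MYC, often lowered by BET inhibitors, fell by 1.07 at 468 nM and 4 h and by 0.54 at 468 nM and 24 h, and was not called at 75 nM after 4 h (change -0.41, adjusted p 0.222) or 24 h (change -0.01, adjusted p 0.985). In bulk RNA, fewer cells of a kind and less RNA per cell cannot be told apart, and the normalization across arrays would hide a shift common to most genes.

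With the 6 group means fitted and no block, no subunit or assembly gene passed the threshold after 4 h at either dose, or after 24 h at 75 nM. At 75 nM and 4 h limma called 0 of 39 genes, beside 0.679% of all genes tested, and 0 had an unadjusted p below 0.05. At 468 nM and 4 h it called 0 of 39 beside 10.9% of all genes, with 1 gene higher and 1 lower at an unadjusted p below 0.05. These were PSMA4 of the α ring (change 0.28, SE 0.10, adjusted p 0.0837) and PSMG3 (change -0.36, SE 0.16, adjusted p 0.156). PSMG3 was also called lower, with an adjusted p of 0.0358, when each array was shifted to hold 9 reference genes level, which moved the median of all genes from -0.03 to -0.15 at this dose and time. At 75 nM and 24 h limma called 0 of 39 beside 0.872% of all genes, with 1 gene higher (PSME1) and 3 lower (PSMB10, PSMC3 and PSMC4) at an unadjusted p below 0.05. PSMB10 was called lower there (change -0.61, adjusted p 0.0115, limma) when arrays were blocked by runs of the codes in their titles, which the labels do not explain. No array overlapped DMSO for PSME1 (higher) and PSMB6 (lower) at 75 nM and 24 h. The same held for PSME1 (higher) and PSMG3 (lower) at 468 nM and 4 h. The share of all genes apart in these comparisons is not given here.

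At 468 nM and 24 h, 16 of the 39 genes fell and 1 rose. Among all genes tested 45.6% were called in this comparison, 25.1% lower and 20.4% higher, so the share of proteasome genes called (43.6%) was close to that of all genes, with nearly all of the calls on the lower side. The change was below 0 for 32 of the 39 genes (82.1%), beside 51.4% of all genes tested, and the median change was -0.18 beside -0.02 for all genes. The falls were small for most. They ran from -0.24 to -1.22 on the log2 scale, or from 1.18-fold to 2.33-fold lower, and only PSMB8 fell more than 2-fold. The DMSO and the 468 nM arrays did not overlap for 11 genes in the lower direction, beside 17.1% of all genes, and for PSME1 in the higher direction, beside 13%. Fitted on the arrays of these 2 groups alone, limma called 10 of the 39, and the share of all genes called there is not given here. The calls of PSMB6, PSMD14, PSMC4, PSMA3, PSMG1, PSME3 and PSMG2 were lost in that fit, with adjusted p from 0.0636 to 0.118, and those of PSME3, PSMA3, PSMG2 and PSMC1 were lost with no filter on dim genes, with adjusted p from 0.0544 to 0.0757.

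**Figure D1:**
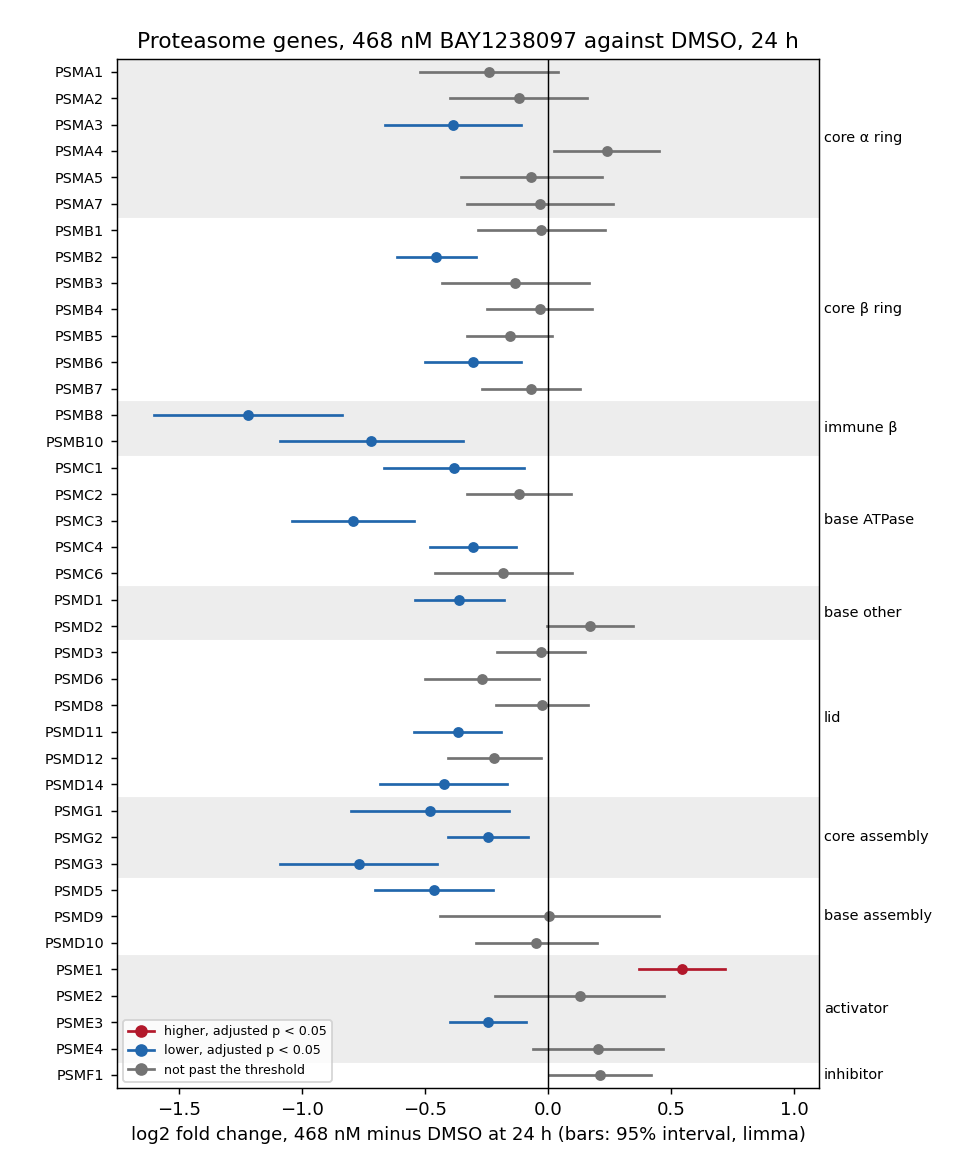
Log2 fold change of the 39 tested subunit and assembly genes at 468 nM against DMSO after 24 h (x axis, 0 at the line), grouped by place in the proteasome (y axis). Points are limma estimates with 95% intervals, blue for genes called lower, red for genes called higher and grey for the rest; PSMB8 lies farthest left at -1.22 and PSME1 farthest right at 0.54.

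By part of the particle, the counts below stand beside 25.1% lower and 20.4% higher among all genes. Both tested immune subunits of the core fell (median change -0.97), and all 3 tested core chaperones did (median -0.48). The cap had 6 of 13 genes lower (median -0.27), and the constitutive core 3 of 13 (23.1%, median -0.12), close to the share of all genes. The base chaperones had 1 of 3 lower, the activators 1 higher and 1 lower of 4, and the inhibitor gene PSMF1 was not called (change 0.21, SE 0.10, adjusted p 0.087) except without 468 nM replicate 2 (higher, adjusted p 0.045). The differences between these classes were not tested, and their members are few.

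The immune subunit PSMB8, on chromosome 6, had the largest fall. Its log2 intensity was 7.08, 7.09, 6.98 and 7.43 on the 4 DMSO arrays at 24 h. On the 5 arrays of 468 nM it was 6.21, 5.12, 6.004, 6.56 and 5.73, so every treated array lay under every DMSO array. The change was -1.22 (SE 0.19, adjusted p 6.76e-06, limma), and it stayed between -1.02 and -1.38 when any 1 array of these groups was left out. At 75 nM and 24 h PSMB8 measured 7.14, 6.78, 7.28, 6.68 and 6.72, which overlapped the DMSO arrays (change -0.22, adjusted p 0.592). At 4 h its means were 6.71 ± 0.17 (SD, n = 4) in DMSO, 6.53 ± 0.10 (SD, n = 5) at 75 nM and 6.62 ± 0.14 (SD, n = 5) at 468 nM, with no call. The array carries 8 probe sets for PSMB8, of which 7 hold identical values and 1 nearly so, and they were counted once.

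PSMB5 is the constitutive subunit that PSMB8 replaces. It measured 10.43, 10.32, 10.44 and 10.46 in DMSO at 24 h and 10.21, 10.09, 10.33, 10.45 and 10.20 at 468 nM, with overlapping arrays and no call (change -0.15, SE 0.08, adjusted p 0.135). Within arrays, the change of PSMB8 minus that of PSMB5 at 468 nM and 24 h was -1.06, and the arrays of the groups did not overlap in this difference. The two-sided exact permutation test gave p = 0.0159, the smallest it can give with 5 against 4 arrays. Adjustment over the 8 such tests made gave 0.127, and a pair alone at the smallest p can get no lower value. The adjusted test therefore could not decide whether the changes of PSMB8 and PSMB5 differ. These tests of subunit pairs were chosen after the values had been seen.

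PSMB10, the immune counterpart of PSMB7, was dim. It measured 5.61, 5.93, 5.56 and 5.33 in DMSO at 24 h, and 5.35, 4.52, 5.29, 4.71 and 4.58 at 468 nM, where replicates 1 and 3 reached the lowest DMSO array or came near it. The change was -0.72 (SE 0.18, adjusted p 0.00211, limma). At 75 nM it measured 5.07, 5.04, 5.40, 4.70 and 4.95, with a change of -0.58 that did not pass without the block (SE 0.18, adjusted p 0.114). The 2 doses share their DMSO arrays, and between them PSMB10 was not called different. PSMB7 measured 8.96, 8.85, 8.96 and 9.15 in DMSO and 8.88, 8.88, 8.89, 9.17 and 8.74 at 468 nM (change -0.07, adjusted p 0.584). The change of PSMB10 minus that of PSMB7 was -0.65 at 468 nM (two-sided exact permutation p = 0.0794, adjusted 0.212).

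PSMB9, the third immune subunit and the counterpart of PSMB6, was not tested. Its values lay between 1.36 and 3.19 on all 28 arrays, against an array median between 2.44 and 2.50 over all probe sets. PSMB6 fell slightly, from 9.03, 9.09, 9.25 and 9.03 in DMSO to 8.74, 8.77, 8.83, 8.999 and 8.63 at 468 nM and 24 h. No array of 468 nM reached the lowest DMSO array, and the change was -0.30 (SE 0.09, adjusted p 0.0102, limma).

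**Figure D2:**
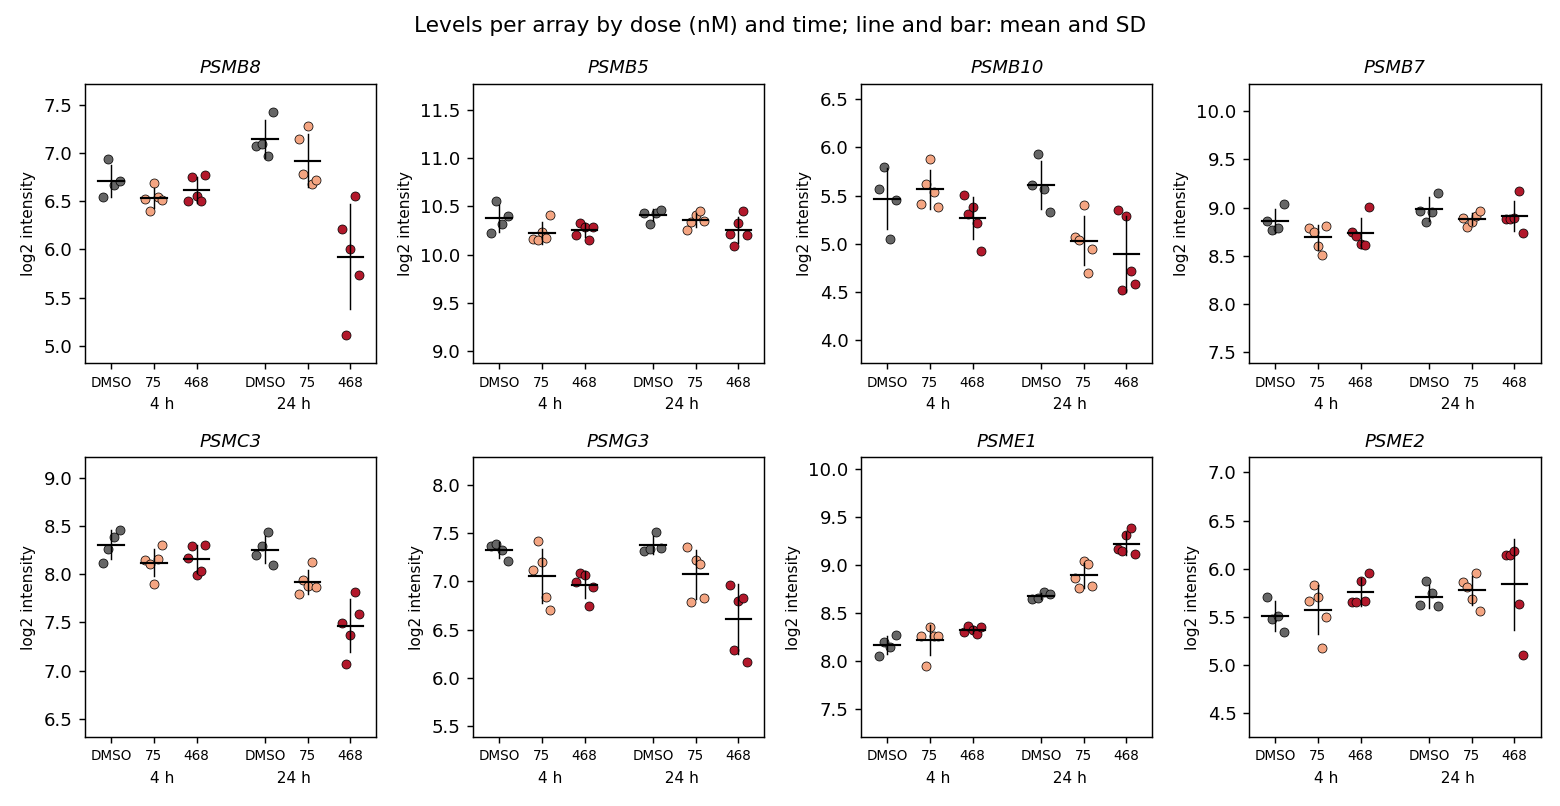
Log2 intensity (y axis) on every array for 8 proteasome genes, by DMSO or dose in nM and by time (x axis); points are arrays, the line is the group mean and the bar 1 SD. PSMB8, PSMC3 and PSMG3 are lowest at 468 nM and 24 h, PSME1 is highest there, and PSMB5 and PSMB7 overlap between groups.

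In the rest of the core, 10 of 13 constitutive genes were not called at 468 nM and 24 h. PSMB2, a β-ring subunit with no proteolytic site, fell from 10.58, 10.50, 10.50 and 10.42 to 9.80, 10.09, 10.12, 10.01 and 10.22. The arrays did not overlap, and the change was -0.45 (SE 0.08, adjusted p 3.25e-05, limma). A second probe set for PSMB2 sits near background, and averaging it in removed the call (change -0.26, adjusted p 0.138). In the α ring only PSMA3 fell (change -0.39, SE 0.13, adjusted p 0.0205), with arrays that overlapped. That call was lost, with adjusted p from 0.0534 to 0.0997, without DMSO replicate 2 or 4 or without 468 nM replicate 2 or 3. PSMA4 had a change of 0.24 that did not pass (SE 0.10, adjusted p 0.0618). It was called higher with the filter at 7 (adjusted p 0.0462), with trend and robust moderation (adjusted p 0.0486), and without DMSO replicate 2 or 3 or 468 nM replicate 2 (adjusted p from 0.0298 to 0.038). The other constitutive core genes that were not called lay between -0.24 (PSMA1) and -0.03 (PSMB1).

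In the cap, the ATPase gene PSMC3 fell most. It measured 8.20, 8.30, 8.43 and 8.10 in DMSO at 24 h and 7.49, 7.06, 7.37, 7.81 and 7.59 at 468 nM. The groups did not overlap, and the change was -0.79 (SE 0.12, adjusted p 7.18e-06, limma). At 75 nM and 24 h it measured 7.79, 7.94, 7.88, 8.13 and 7.87, with 4 of 5 arrays under the lowest DMSO array, and the change of -0.33 did not pass (SE 0.12, adjusted p 0.172). Among the other ATPases, PSMC4 fell by 0.30 (SE 0.08, adjusted p 0.0046) and PSMC1 fell by 0.38 (SE 0.14, adjusted p 0.0254). PSMC1 lost its call, with adjusted p from 0.0524 to 0.0722, without DMSO replicate 2 or 3 or without 468 nM replicate 1 or 2. PSMC2 (change -0.12) and PSMC6 (change -0.18) were not called.

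Of the scaffold genes of the base, PSMD1 fell by 0.36 (SE 0.09, adjusted p 0.00156), from 10.83, 10.57, 10.53 and 10.44 to 10.06, 10.40, 10.25, 10.24 and 10.20, with no overlap. Its partner PSMD2 had a change of 0.17 in the other direction that did not pass (SE 0.08, adjusted p 0.101) except without DMSO replicate 1 (adjusted p 0.0358). In the lid the deubiquitinase gene PSMD14 fell by 0.42 (SE 0.13, adjusted p 0.00742). It measured 8.78, 8.98, 9.25 and 8.93 in DMSO and 8.26, 8.48, 8.53, 9.05 and 8.48 at 468 nM, where replicate 4 lay among the DMSO arrays and the other 4 under them. PSMD11 fell by 0.37 (SE 0.09, adjusted p 0.00111) without overlap. PSMD6 (change -0.27, adjusted p 0.0523) and PSMD12 (change -0.22, adjusted p 0.0536) lay just outside the threshold, and PSMD3 and PSMD8 both had a change of -0.03.

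The 3 tested chaperones of core assembly were called lower at 468 nM and 24 h, PSMG3 under every alternative run and PSMG1 and PSMG2 not in the fit of these 2 groups alone (adjusted p 0.0872 and 0.118). PSMG3 measured 7.32, 7.33, 7.52 and 7.35 in DMSO and 6.97, 6.29, 6.801, 6.83 and 6.16 at 468 nM. Every treated array was lower, and the change was -0.77 (SE 0.16, adjusted p 2.34e-04, limma). PSMG1 and PSMG2 encode the partners of another chaperone pair. PSMG1 measured 8.13, 8.502, 8.45 and 8.24 in DMSO and 7.77, 7.65, 7.75, 8.57 and 7.496 at 468 nM, where replicate 4 was above every DMSO array and the other 4 below them. Its change was -0.48 (SE 0.16, adjusted p 0.0136), or -0.66 (adjusted p 8.45e-05) without that replicate. PSMG2 fell by 0.24 (SE 0.08, adjusted p 0.0143), a call also lost without DMSO replicate 3 (adjusted p 0.0691). Of the base chaperones PSMD5 fell by 0.46 (SE 0.12, adjusted p 0.00208), from 7.29, 7.52, 6.93 and 7.19 to 6.89, 6.79, 6.91, 6.68 and 6.59. PSMD10, known as gankyrin, and PSMD9 had changes of -0.05 and 0.01.

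The activator gene PSME1, on chromosome 14, was the only subunit or assembly gene called higher at 468 nM and 24 h in the fit of all groups with all arrays. It measured 8.65, 8.65, 8.71 and 8.70 in DMSO at 24 h and 9.16, 9.14, 9.31, 9.38 and 9.11 at 468 nM. All treated arrays were higher, and the change was 0.54 (SE 0.08, adjusted p 1.05e-05, limma), a 1.46-fold rise. At 75 nM it measured 8.87, 8.76, 9.04, 9.01 and 8.78, again above every DMSO array. The share of all genes apart there is not given here, and the change of 0.21 did not pass (SE 0.08, adjusted p 0.215). PSME2 encodes the other subunit of the same ring. It measured 5.62, 5.87, 5.74 and 5.61 in DMSO and 6.14, 6.14, 6.18, 5.63 and 5.10 at 468 nM, so that 3 arrays lay above the DMSO arrays, 1 among them and 1 below (change 0.13, SE 0.17, 95% interval -0.22 to 0.47, adjusted p 0.555). PSME3, whose product opens the core in the nucleus, fell by 0.24 (SE 0.08, adjusted p 0.0098), a call lost in the fit of these 2 groups alone (adjusted p 0.107) and with no filter (adjusted p 0.0544), and PSME4 was not called (change 0.20, adjusted p 0.206).

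Promoter sequence was compared for the genes that moved apart. RefSeq promoters on GRCh38.p14 were matched by symbol for 38 of the 44 subunit and assembly genes, and the 250 bases before the start were searched on both strands. A promoter was found for 14 of the 16 genes called lower at 468 nM and 24 h. No searched motif is listed for PSMB8, and whether it had a promoter to search is not given here. A gene counted where any of its promoters held the motif, and some genes, such as PSMA4, have several. The core of the antioxidant response element, TGACNNNGC, to which NFE2L1 and NFE2L2 bind with small MAF proteins, was present in 12 of 38 (31.6%). Among all 27305 genes with a promoter searched in this way it was present in 13.2%. The core of the interferon-stimulated response element, GAAA then NN then GAAA, was present in 5 of 38 (13.2%), beside 3.71% of all. The CCAAT box (CCAAT) was in 17 of 38 (44.7%, beside 37.0%) and the E-box bound by MYC (CACGTG) in 3 of 38 (7.89%, beside 7.73%). The searched motifs can overlap each other in place, and a match is a description of letters, not a site shown to be used.
The windows below hold the interferon-type element in PSMB10, which fell, and in PSME2 and PSMB4, which were not called, and the antioxidant-type element in PSME1, which rose, in PSMD5 and PSMG1, which fell, and in PSMD3, which was not called. Capitals mark the motif, and each sequence runs 5′ to 3′ on the strand of its gene.
PSMB10 (chr16:67936851-67936901, minus strand): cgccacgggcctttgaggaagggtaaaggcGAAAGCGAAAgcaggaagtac
PSME2 (chr14:24146611-24146668, minus strand): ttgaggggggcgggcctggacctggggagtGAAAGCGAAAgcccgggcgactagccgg
PSMB4 (chr1:151399475-151399544, plus strand): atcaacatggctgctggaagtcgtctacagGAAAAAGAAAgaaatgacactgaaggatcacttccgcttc
PSME1 (chr14:24136078-24136146, plus strand): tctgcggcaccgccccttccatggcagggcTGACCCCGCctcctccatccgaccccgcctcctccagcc
PSMD5 (chr9:120843018-120843086, minus strand): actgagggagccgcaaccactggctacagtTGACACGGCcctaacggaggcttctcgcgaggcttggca
PSMG1 (chr21:39183596-39183664, minus strand): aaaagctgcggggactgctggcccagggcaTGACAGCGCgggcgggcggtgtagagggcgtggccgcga
PSMD3 (chr17:39980740-39980806, plus strand): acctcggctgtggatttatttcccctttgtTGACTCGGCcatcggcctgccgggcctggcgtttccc

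The 10-base interferon-type core has the same letters in PSMB10, PSME2 and PSMG4. At 468 nM and 24 h PSMB10 fell, PSME2 was not called and PSMG4 was too dim to test. Whether the changes of PSMB10 and PSME2 differ was not tested. Among genes with a promoter, the antioxidant-type core was in 3 of 14 called lower (21.4%), in 7 of 19 not called (36.8%) and in PSME1. The interferon-type core was in 1 of 14 called lower and in 3 of 19 not called. These shares were not tested against each other.

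The treated arrays at 468 nM and 24 h differed among themselves, and not equally for each class. For every array, the deviation of each gene from its own mean over all arrays was taken, and then the median of these over a class. For the constitutive core this median was -0.02, -0.27, 0.05, 0.33 and -0.10 on replicates 1 to 5, so replicate 4 stood high and replicate 2 low. For the cap it was -0.29, -0.29, -0.22, 0.08 and -0.21, with replicate 4 again apart, and for the assembly chaperones -0.08, -0.39, -0.11, 0.10 and -0.31. For the immune subunits PSMB8 and PSMB10 it was negative on all 5 arrays, at -0.18, -1.14, -0.31, -0.32 and -0.80. PSMB8 lay below its own mean on each of them, but PSMB10 on replicate 1 measured 5.35, above its own mean of 5.29. Without replicate 4, limma called 20 of 39 genes in place of 17, with 19 lower and the single rise of PSME1. PSMA1 (adjusted p 0.0286) and PSMB5 (adjusted p 0.0484) were among those added. How many of all genes were called without replicate 4 is not given here, so the larger count is not particular to these genes.

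**Figure D3:**
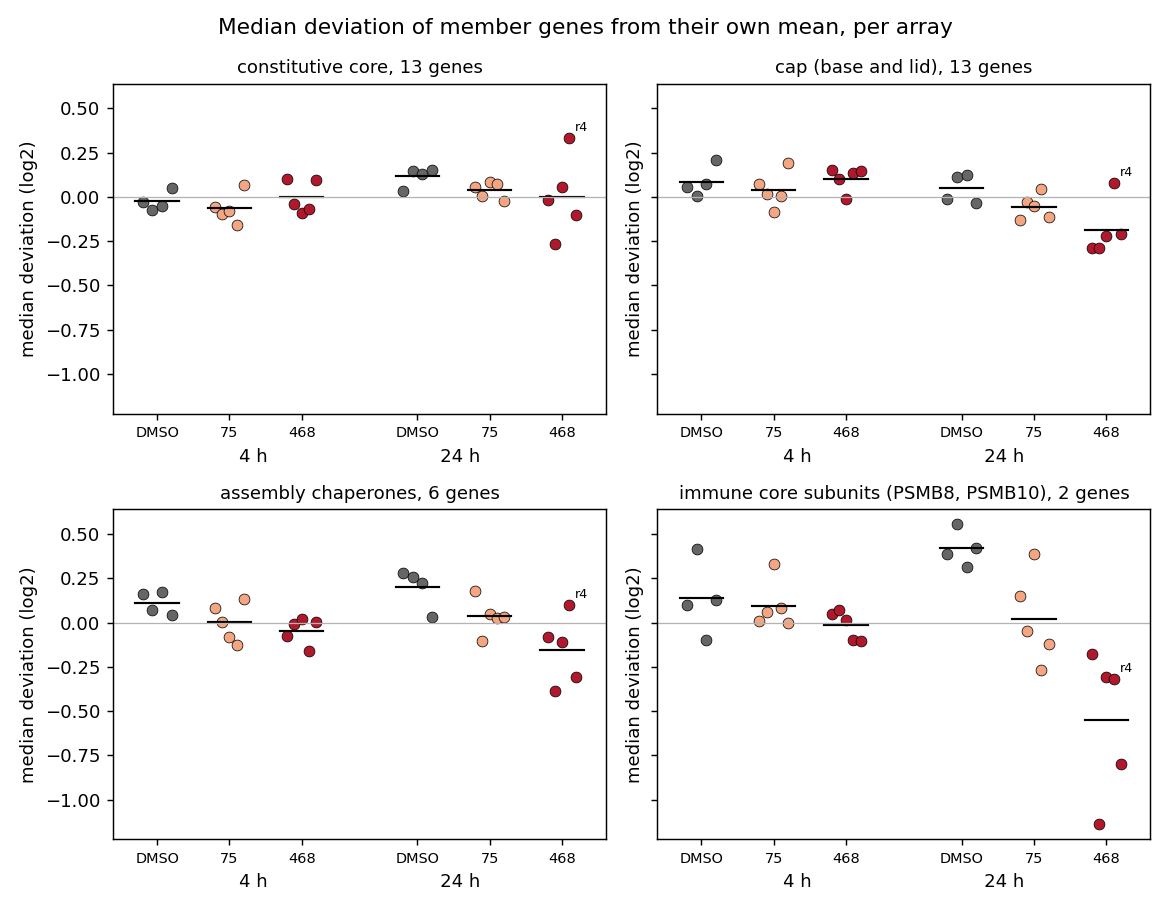
Median deviation (y axis, log2) of the genes of a class from their own mean over all arrays, on every array, by DMSO or dose in nM and by time (x axis), for 4 classes; points are arrays and lines are group means. Replicate 4 of 468 nM at 24 h is marked r4 and is the highest of its group in the constitutive core, the cap and the assembly chaperones.

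The doses were compared within each time, and whether their difference changed with time was not tested. At 4 h limma called 0 of 39 genes for 468 nM against 75 nM, beside 2.56% of all genes, with 2 higher and 0 lower at an unadjusted p below 0.05. At 24 h it called 9 of 39 (23.1%), with 8 lower and 1 higher at 468 nM, beside 30.8% of all genes (17.4% lower and 13.4% higher). PSMB8 had a difference of -0.997 (SE 0.17, adjusted p 8.81e-05), and its arrays of the 2 doses did not overlap. Arrays of the doses were apart in this way for 2 of 39 genes in the lower and 1 in the higher direction, beside 10.3% and 8.01% of all genes. PSMC3 had a difference of -0.46 (SE 0.11, adjusted p 0.00319), PSMB2 of -0.37 (SE 0.07, adjusted p 3.28e-04), PSMG3 of -0.47 (SE 0.15, adjusted p 0.0165) and PSMD5 of -0.35 (SE 0.11, adjusted p 0.0177). PSME1 was 0.33 higher at the higher dose (SE 0.08, adjusted p 0.00265), with no overlap between the doses.

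Several of the calls between doses were lost when single arrays were left out. PSMD14 (difference -0.32, adjusted p 0.0405) lost its call without any 1 of 7 of the 10 arrays, with adjusted p up to 0.126, and PSMD1 (difference -0.23, adjusted p 0.0346) without any 1 of 5, with adjusted p up to 0.118. PSMG3 lost its call without any 1 of 3 (up to 0.0654) and PSMD5 without either of 2 (up to 0.0578). PSMD11 (difference -0.26, adjusted p 0.0144), PSMB8, PSMC3, PSMB2 and PSME1 kept theirs without any 1 array. PSMD11 lost its call with no filter, with the reference shift and with only these groups in the fit (adjusted p up to 0.135), and PSMB2 with the mean of its probe sets (adjusted p 0.0556). The count was 5 without replicate 5 of 468 nM and 11 without replicate 4. It was 4 with no filter on dim genes and 5 with the shift by reference genes or with only these groups in the fit. For these runs the share of all genes called is not given here.

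The effect of 468 nM differed between 24 h and 4 h for 6 of 39 genes, by the interaction term in limma, beside 23.5% of all genes tested (12.7% lower and 10.8% higher). The change of PSMB8 against DMSO went from -0.10 at 4 h to -1.22 at 24 h, a difference of -1.12 (SE 0.26, adjusted p 0.00282). That of PSMC3 went from -0.15 to -0.79 (difference -0.64, SE 0.17, adjusted p 0.00736), and that of PSMB2 from -0.07 to -0.45 (difference -0.39, SE 0.11, adjusted p 0.0115). The call of PSMB2 was lost with no filter (adjusted p 0.0682), with the reference shift (0.182) and with the mean of its probe sets (difference -0.07, adjusted p 0.83). PSME1 went the other way, from 0.16 to 0.54 (difference 0.38, SE 0.12, adjusted p 0.0213), a call lost with no filter (adjusted p 0.0986). PSMB8 and PSMC3 kept theirs under every alternative run. The lid gene PSMD6 (difference -0.46, adjusted p 0.0384) and PSMC4 (difference -0.35, adjusted p 0.0344) were also called, but each lost its call without any 1 of 9 and any 1 of 8 arrays, with adjusted p up to 0.102 and 0.0881. Without replicate 4 of 468 nM at 24 h the count was 11 in place of 6, with no filter it was 2, and with the shift by reference genes it was 3. For these runs too the share of all genes called is not given here. For 75 nM the interaction called 0 of 39 genes in limma, beside 0.0323% of all genes, with 1 (PSMB10) at an unadjusted p below 0.05.

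**Figure D4:**
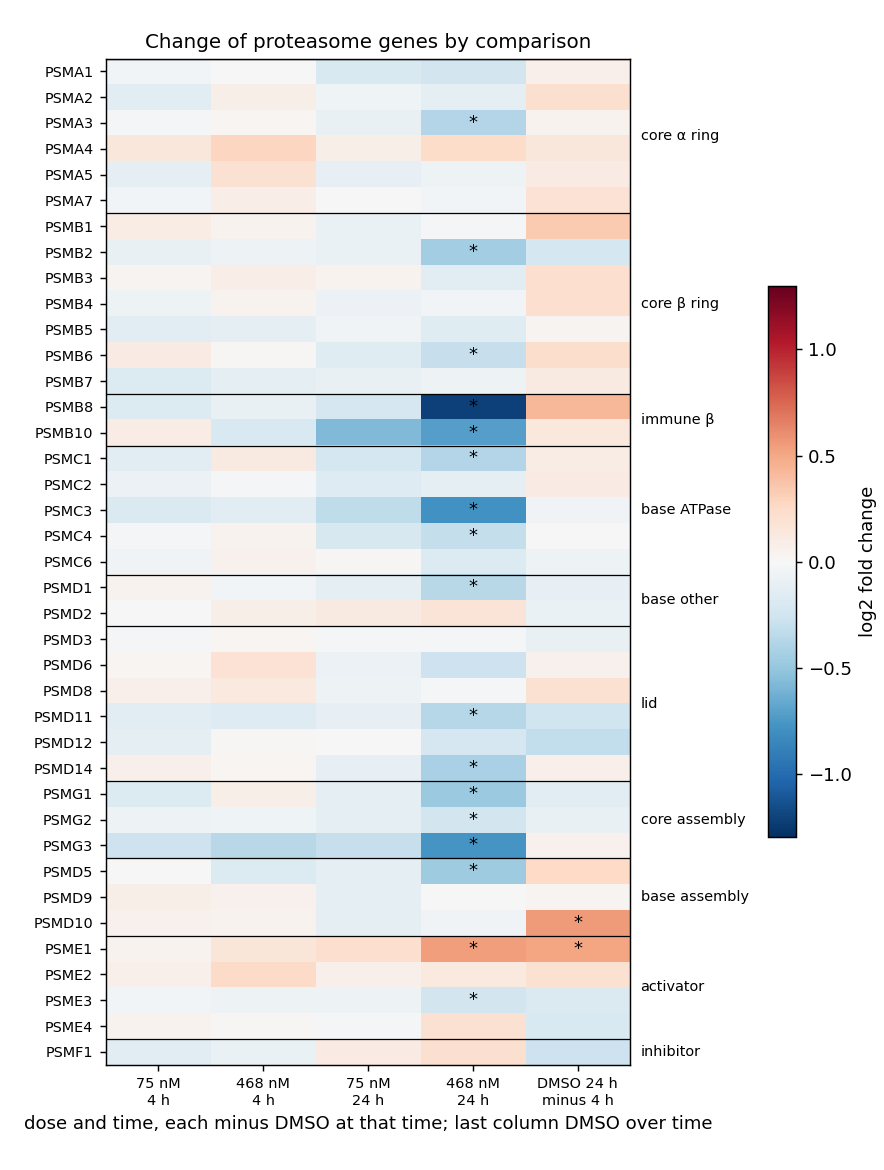
Log2 fold change (colour) of the 39 genes (rows, grouped by class) for each dose and time against DMSO of the same time and for DMSO at 24 h against 4 h (columns); stars mark an adjusted p below 0.05 in limma. Stars stand in 17 rows of the column for 468 nM at 24 h and in the rows of PSMD10 and PSME1 in the DMSO column, and in none of the other columns.

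In DMSO alone, 2 of 39 genes were higher at 24 h than at 4 h and 0 were lower, beside 5.23% of all genes tested (2.63% higher and 2.61% lower). PSME1 rose from 8.05, 8.20, 8.15 and 8.28 to 8.65, 8.65, 8.71 and 8.70, without overlap (change 0.51, SE 0.09, adjusted p 0.00184, limma). Arrays of the 2 times were apart for 6 of 39 genes in the higher and 4 in the lower direction, beside 6.49% and 6.65% of all genes. Time in culture and 468 nM each came with a rise of PSME1, the second measured against DMSO of the same time. PSMD10 rose from 8.48, 8.88, 8.72 and 9.06 to 9.46, 9.46, 9.32 and 9.15 (change 0.56, SE 0.13, adjusted p 0.0117), a call lost without DMSO replicate 1 of 4 h (adjusted p 0.0578). PSMB8 had a change of 0.43 that did not pass (SE 0.20, adjusted p 0.186). With arrays shifted to the reference genes, the median of all genes moved from 0.00 to 0.14 in this comparison, and 7 of the 39 genes were called higher. That shift raised genes in general, and the share of all genes called higher under it is not given here.

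The members that are not proteasome parts were described apart. PSMC3IP, whose product acts with recombinases in homologous recombination, measured 7.22, 7.58, 7.54 and 7.38 in DMSO at 24 h and 6.51, 6.04, 6.29, 6.48 and 6.003 at 468 nM. The groups were far apart, and the change was -1.16 (SE 0.11, adjusted p 6.29e-09, limma), nearly as large as that of PSMB8. It also fell with time in DMSO, by 0.61 (SE 0.12, adjusted p 0.00321). PSME3IP1 was not called in any comparison, with a change of 0.01 at 468 nM and 24 h. PSMG3-AS1 had a change of 1.097 (SE 0.27) at 468 nM and 24 h, but it exceeded the filter on only 4 arrays, all in that group. It was tested only because it was high there, so its call is not counted as a result. Its partner PSMG3 fell in the same comparison, and whether the probe sets read a single strand is not given in the sources used here. PSMB8-AS1 and PSMD6-AS2 did not pass the filter.

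Other genes of the pathway were taken from fixed lists. The counts at 468 nM and 24 h are read beside 45.6% of all genes called, 20.4% higher and 25.1% lower, and no list was tested against other genes. Of 10 further proteasome-associated genes 9 were tested, and 3 fell and 0 rose (median change -0.17, beside -0.02 for all genes). ADRM1, a ubiquitin receptor of the cap, fell by 0.53 (SE 0.12, adjusted p 8.89e-04). UCHL5, the deubiquitinase that ADRM1 holds on the cap, fell by 0.84 (SE 0.12, adjusted p 1.71e-06), from 6.97 ± 0.11 (SD, n = 4) to 6.13 ± 0.19 (SD, n = 5). ECPAS, an adaptor of the proteasome, fell by 0.53 (SE 0.11, adjusted p 2.15e-04). The core maturation factor POMP (change -0.24, adjusted p 0.077) and the cap deubiquitinase USP14 (change -0.17, adjusted p 0.0608) did not pass. AKIRIN2, which brings proteasomes into the nucleus, was higher at 468 nM and 4 h (change 0.29, SE 0.09, adjusted p 0.0289) and not called at 24 h.

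Of 8 genes that control proteasome transcription only 3 were tested. NFE2L1, the factor that raises proteasome genes when proteolysis is blocked, rose by 0.26 at 468 nM and 24 h (SE 0.09, adjusted p 0.0198). NFE2L2 had a change of 0.21 that did not pass (adjusted p 0.1), and its partner MAFG fell by 0.63 at 468 nM and 4 h (SE 0.18, adjusted p 0.0232). Among 11 tested genes of ubiquitin activation and delivery, 5 rose and 2 fell at 468 nM and 24 h, beside 20.4% and 25.1% of all genes (median change 0.10, beside -0.02). The proteasome-binding stress gene ZFAND5 rose by 0.70 (SE 0.11, adjusted p 5.50e-06), UBQLN2 by 0.42 and the ubiquitin-activating enzyme genes UBA1 by 0.32 and UBA6 by 0.24, while the shuttle genes UBQLN4 and RAD23B fell by 0.59 and 0.38.

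Of 7 tested genes of class I antigen presentation, which the immune subunits serve, 3 rose and 2 fell at 468 nM and 24 h, beside 20.4% and 25.1% of all genes (median change 0.13, beside -0.02). The light chain gene B2M rose by 0.65 (SE 0.15, adjusted p 7.37e-04), HLA-E by 0.49 (SE 0.11, adjusted p 7.39e-04) and HLA-C by 0.48 (SE 0.12, adjusted p 0.00195), where HLA genes are alike enough in sequence that probes may share signal. The peptide transporter gene TAP2 fell by 0.79 (SE 0.13, adjusted p 1.54e-05), from 6.09 ± 0.16 (SD, n = 4) to 5.31 ± 0.15 (SD, n = 5), and the trimming peptidase gene ERAP1 by 0.52 (SE 0.15, adjusted p 0.00666). TAP1 was not called (change -0.10, SE 0.12, adjusted p 0.537).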

How the data were processed

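The values were deposited intensities that the authors had computed with RMA, per the submitters' processing notes. RMA is a method that corrects background, brings arrays to the same distribution and summarises each probe set. For neither its version nor the probe sets' build do the labels or headers give a name. The table held 53617 probe sets on 28 arrays with no missing value, and precision is limited by how many arrays each group has. The deposited linear intensities were converted to log2, where array medians lay between 2.44 and 2.50. Of the probe sets, 23871 carried 1 gene symbol in the platform annotation, 1842 several and 27904 were not listed. Symbols were updated through the RefSeq table of GRCh38.p14, by gene ID for 22569, by current symbol for 733 and by older symbol for 565, and 4 were kept.

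Genes above a log2 intensity of 5 on at least 4 arrays were tested with limma 3.58.1 in R 4.3.3, with 1 mean for each of the 6 groups and Benjamini-Hochberg adjustment over 9285 genes, in 9 comparisons. The script was tested on simulated data. Genes named with values on each array were the catalytic pairs, the 5 largest rises and falls called in a comparison and the member with the largest change of each class. Other members were named where their class needed them, and further genes came only from the pathway lists. The members and lists were chosen with earlier results of these data known. Alternatives changed the filter, the probe set rule, the normalization, the treatment of low values, the moderation, the arrays in the fit and a block, and left out each array in turn.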

Additional observations from a re-analysis of the deposited data

Results flagged for a closer look

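Among 114 groups of arrays examined for the 19 named members, 6 (5.26%) had 1 array far from the rest, where chance gives about 5%. PSMB9 in DMSO at 24 h measured 2.015 on replicate 4 and from 2.991 to 3.018 on the others, all near background. PSMG3 in the same group measured 7.515 on replicate 3 and from 7.315 to 7.347 on the others. PSME1 at 75 nM and 4 h measured 7.953 on replicate 2 and from 8.261 to 8.352 on the others. PSMG1 stood apart on 2 arrays, at 8.407 on replicate 1 of 75 nM and 24 h (others 8.102 to 8.187) and at 8.573 on replicate 4 of 468 nM and 24 h (others 7.496 to 7.773). PSMD6 at 468 nM and 24 h measured 6.261 on replicate 5 and from 6.542 to 6.651 on the others.

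The effect of 468 nM differed between the times for 6 genes by the interaction term in limma. The difference of the effects, 24 h minus 4 h, was -1.12 for PSMB8, -0.6419 for PSMC3, -0.4551 for PSMD6, -0.3864 for PSMB2, -0.3506 for PSMC4 and 0.384 for PSME1. The effect of PSMD6 was 0.19 at 4 h and -0.27 at 24 h, and that of PSMC4 was 0.05 and -0.31. PSMD6 was called at neither time and PSMC4 only at 24 h, so no change of sign is shown for either.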

How the results depend on the processing

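The 34 calls were recomputed under 671 alternative values, with 0 reversed, and 14 calls passed the threshold throughout. At 468 nM against DMSO after 24 h, where 17 genes were called, fitting only the groups compared gave 10 and leaving out single arrays 16 to 20. At 468 nM and 4 h the count of 0 became 1 (PSMG3) with the shift by reference genes and with only the groups compared. For 468 nM against 75 nM after 24 h the count of 9 became 4 with no filter on dim genes, 5 with the reference shift, 5 with only the groups compared, and 5 to 11 without single arrays. For the interaction of 468 nM with time the count of 6 became 2 with no filter, 3 with the reference shift and 4 to 11 without single arrays. For time in DMSO the count of 2 became 1 with no filter, 7 with the reference shift, 1 with only the groups compared and 1 to 3 without single arrays. The other comparisons gave 0 calls without any single array. How many of all genes each alternative called is not given here, so these counts cannot be set beside that share. The cause of these differences was not tested, beyond the larger adjustment with no filter and the smaller number of arrays in the fits of fewer groups.

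Titles carry codes that the labels do not explain, and arrays were blocked by runs of these codes. Arrays of the same run deviated together within a time. Of 26 such pairs 23 correlated above 0.1 (lowest 0.015, median 0.205, beside -0.046 for 104 pairs of different runs), while across times 10 of 40 did (median 0.025), and 22 of 28 arrays correlated best with their own run. This is a hint from the data that runs share something. The run with replicate 1 of every treated group holds no DMSO array. Each DMSO replicate shares its run with the treated replicates of the next number. The labels state no pairing, so the fit without the block was kept as planned. With this replicate block the count at 75 nM and 24 h was 1 (PSMB10). It was 19 at 468 nM and 24 h, 11 between doses, 8 for the interaction of 468 nM and 3 for time in DMSO. Here too the share of all genes called is not given.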
